A study of Mus musculus with 8 samples.

Results

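MHC class I molecules show peptides made inside a cell to CD8+ T cells and natural killer cells. Each is a heavy chain bound to β2-microglobulin and a short peptide. Peptides are cut by the proteasome, pumped into the endoplasmic reticulum by the TAP transporter, trimmed there by the aminopeptidase ERAP1 and loaded onto the heavy chain with the help of tapasin and calreticulin. T lymphocytes carry class I on their surface, and the transactivator NLRC5 is known to drive transcription of the heavy chain genes in them. The 10 genes of this route described here, taken by symbol from both count tables, are the heavy chain genes *H2-K1*, *H2-D1* and *H2-T23*, the light chain gene *B2m*, the transporter genes *Tap1* and *Tap2*, the loading factors *Tapbp* and *Calr*, the trimming enzyme gene *Erap1* and the regulator gene *Nlrc5*. They are 10 of the 13704 genes with a read in either library, and each of them had reads in both.

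RNA-seq of mRNA was done on Th17 cells, the IL-17-producing helper T cells, which were derived in culture from sorted naive CD4+ cells of C57BL/6 mice. The wild type (WT) library and the library of TRIM28fl/flxCD4cre cells (KO), in which a Cre transgene under the *Cd4* promoter deletes loxP-flanked *Trim28* in T cells, both came from 3-day cultures in TGF-β (0.5 ng/ml) plus IL-6 (20 ng/ml), re-stimulated through CD3. Whether the WT mice carried Cre or the floxed allele, and how many mice were used, is not given in the sources used here. There was 1 library per genotype, so no difference has a replicate check, no test between genotypes could be made and no p-value is given. Values are raw counts of uniquely assigned reads, CPM (reads per 1000000 reads of the library) and log2 fold changes of KO against WT with 0.5 added to each count. Each fold change has a 95% interval by the exact method of Clopper and Pearson. It holds counting error alone, and without molecular identifiers reads are not independent molecules. In cell populations measured in bulk, fewer cells with a transcript and less transcript per cell cannot be told apart.

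Depth was alike, at 6650066 reads on 13078 genes for WT and 6185108 reads on 12754 genes for KO. The deleted gene, *Trim28*, kept 180 reads (29.1 CPM) in KO of 4485 (674 CPM) in WT. All 9 T-cell marker genes had reads in both libraries, with 4968 CPM in all in WT and 4784 CPM in KO. The 5 Th17 markers together had 1139 and 328 CPM, led by *Il17f* with 3143 and 345 reads and *Il17a* with 2226 and 381 reads. Of markers of other cells, the 10 class II genes of antigen-presenting cells had 111 CPM in all in WT and 115 CPM in KO. The other lists were lower. The 6 B-cell genes had 12.8 and 7.44 CPM in all. For 8 macrophage and dendritic cell genes it was 4.21 and 3.56 CPM (*Cd68* 22 and 16 reads, with *Lyz2*, *Csf1r* and *Adgre1* at 0 in both). For 6 CD8 T and NK cell genes it was 16.7 and 16.0 CPM (*Klrd1* 58 and 70 reads, with *Ncr1*, *Klrb1c* and *Eomes* at 0 in both). Of the CD8 genes in that list, *Cd8b1* had 52 and 27 reads (log2 fold change -0.83, interval -1.57 to -0.14) and *Cd8a* 1 and 2 reads. The part of such cells in the values below was not tested.

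None of the 10 class I pathway genes differed by 2-fold between the libraries, in either direction. Of 10881 genes tested (10 or more reads in the sum of the libraries), 7.94% were at least 2-fold lower and 3.75% at least 2-fold higher in KO. Within that limit the genes differed in direction. The 3 heavy chain genes together stood 1.43-fold higher in CPM in KO (log2 fold change 0.52, interval 0.48 to 0.55), as had *Tap2* (0.51), whereas *B2m* and *Tap1* were level and *Nlrc5* and *Erap1* were lower (-0.77 and -0.52). At 1.5-fold, *Nlrc5* was the only gene of the 10 that was lower, against 17.7% of all genes tested, and none was higher, against 10.8%. After correction for transcript length *Nlrc5* stood at -0.36, no longer past 1.5-fold. The interval lay above 0 for 6 of the 10 genes (23.5% of all genes tested) and below 0 for 2 (25.0%). Intervals narrow with reads, and among the 6000 genes with at least the 276 reads of *Tap1*, the lowest of the 10, these shares were 34.2% and 30.4%. The median log2 fold change of the 10 genes was 0.20, against -0.02 over all genes tested, and 0.06 against 0.00 after the length correction.

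**Figure D1:**
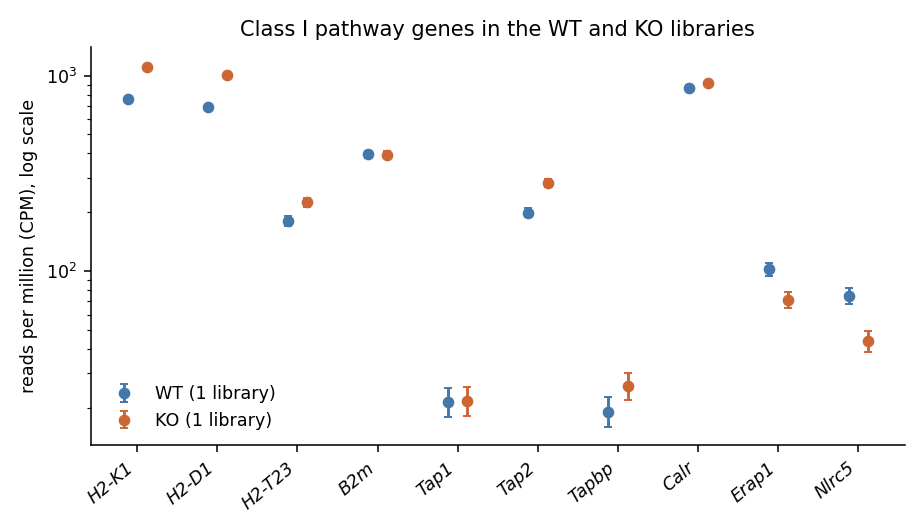
Levels in CPM (log scale) of the 10 class I pathway genes in the WT library (blue) and the KO library (orange), with exact 95% Poisson intervals of counting error, 1 library per genotype. *H2-K1*, *H2-D1*, *H2-T23* and *Tap2* lie higher in KO, *Nlrc5* and *Erap1* lower, and *B2m* and *Tap1* at about the same height in both.

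Sequences before the starts of 4 of the genes are shown because *H2-K1* and *H2-D1* differed between the libraries by the same amount, while *B2m*, whose product pairs with theirs, did not and *Erap1* differed the other way. Each line is the 250 bases before the start of a curated transcript in RefSeq's GRCm38.p6 table, 5′ to 3′ on the gene's strand. For *H2-K1* and *Erap1* the window lies inside the gene span given further on, since that span also takes in predicted transcripts that start farther upstream. They are chr17:34000348-34000597 (minus strand) for *H2-K1*, from the more upstream of its 2 curated starts, chr17:35262844-35263093 (plus) for *H2-D1*, chr2:122147437-122147686 (plus) for *B2m* and chr13:74639603-74639852 (plus) for *Erap1*. Capitals mark matches, on either strand, to GGGATTCC (letters of the κB site, bound by NF-κB), TTTCNNTT (the core of interferon-response elements), TGACG (the core of CRE-like sites) and CCAAT (the letters of the Y box, bound by NF-Y).
H2-K1: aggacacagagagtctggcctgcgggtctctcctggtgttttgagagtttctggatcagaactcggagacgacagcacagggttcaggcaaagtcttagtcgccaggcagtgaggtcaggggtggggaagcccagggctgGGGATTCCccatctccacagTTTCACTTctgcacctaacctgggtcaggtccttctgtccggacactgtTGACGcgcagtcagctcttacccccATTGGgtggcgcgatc
H2-D1: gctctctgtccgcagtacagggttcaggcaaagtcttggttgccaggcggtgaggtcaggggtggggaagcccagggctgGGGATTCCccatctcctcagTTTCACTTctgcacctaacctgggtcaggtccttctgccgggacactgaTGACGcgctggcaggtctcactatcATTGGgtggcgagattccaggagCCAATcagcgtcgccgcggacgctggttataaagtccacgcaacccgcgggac
B2m: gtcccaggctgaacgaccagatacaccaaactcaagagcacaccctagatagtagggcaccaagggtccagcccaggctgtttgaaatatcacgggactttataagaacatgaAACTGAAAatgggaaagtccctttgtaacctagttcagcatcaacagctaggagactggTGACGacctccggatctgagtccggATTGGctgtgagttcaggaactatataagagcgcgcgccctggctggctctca
Erap1: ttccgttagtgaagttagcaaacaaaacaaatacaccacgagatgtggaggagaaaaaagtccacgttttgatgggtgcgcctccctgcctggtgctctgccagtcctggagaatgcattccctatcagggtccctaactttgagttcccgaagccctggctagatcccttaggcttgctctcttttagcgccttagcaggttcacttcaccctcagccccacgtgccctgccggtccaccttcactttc

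The windows of *H2-K1* and *H2-D1* each held all 4 motifs, in the same order, and were identical at 89.5% of their 190 aligned bases. GGGATTCC was in 292 of 32817 windows of this length before all annotated starts (0.890%), those of *H2-K1* and *H2-D1* among them. These 2 windows are close copies, and the motifs were chosen after the windows had been seen, so this share is no test. The other letters were common, with CCAAT in 33.8%, TTTCNNTT in 21.3% and TGACG in 17.7% of windows. *B2m* held the last 3 motifs and *Erap1* none of the 4 in this window. Only these exact letters were sought, so a κB site in other letters is not marked, in *B2m* or elsewhere. Of the 8 genes of the pathway with a window in the table, 2 held GGGATTCC, 5 TTTCNNTT, 4 TGACG and 7 CCAAT. *H2-T23* (log2 fold change 0.32) and *Calr* (0.08) held TTTCNNTT and CCAAT, *Tapbp* (0.44) CCAAT alone, and *Tap1* (0.02) TGACG and CCAAT. Other genes with GGGATTCC in the window lay on both sides of 0, such as *Il2ra* (-0.36) and *Akr1a1* (0.33). The part of these letters in the fold changes was not tested. These matches describe letters and do not show that a factor binds there.

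*H2-K1*, on chromosome 17 of GRCm38 from 33996012 to 34000619, encodes the classical heavy chain H-2K. Its 5027 WT reads (756 CPM) stood against 6803 in KO (1100 CPM), for a log2 fold change of 0.54 and an interval from 0.49 to 0.59. *H2-D1*, from 35263094 to 35267497 on the same chromosome, encodes the classical heavy chain H-2D. WT had 4589 reads (690.1 CPM) and KO 6204 (1003 CPM), again 0.54 on the log2 scale (interval 0.48 to 0.59). The classical genes thus stood at 1.45-fold each, and the ratio of *H2-D1* to *H2-K1* reads was 0.913 in WT and 0.912 in KO. Their ratio of ratios was 0.999 (exact interval 0.947 to 1.05). *H2-T23*, from 36029977 to 36032701, encodes Qa-1, a non-classical heavy chain that binds peptides from the leaders of other class I chains and is seen by NKG2A receptors. WT had 1197 reads (180.0 CPM) and KO 1392 (225 CPM), which is 0.32 on that scale (interval 0.21 to 0.43). Relative to *H2-K1* reads, *H2-T23* in KO stood at 0.859 of its WT ratio (exact interval 0.788 to 0.937), so its difference was smaller than that of the classical genes.

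Heavy chain genes are close copies of each other, so reads that fit several of them may have been left out or split. The *H2-K1* and *H2-D1* transcripts were identical at 90.5% of aligned bases, and they matched *H2-T23* at 80.5% and 82.6%. Of all 100-base windows of the transcript, 0% for *H2-K1*, 4.6% for *H2-D1* and 7.3% for *H2-T23* were also in a transcript of another gene, and of 50-base windows 8.8%, 14.3% and 29.8%. Summed over all 18 heavy chain genes with reads, so that reads counted for another of them are included, there were 11995 reads in WT and 15609 in KO (log2 fold change 0.48, interval 0.45 to 0.52). Reads left out of a unique count, or shared with genes outside the 18, are not in this sum.

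*B2m*, on chromosome 2 from 122147687 to 122153082, encodes β2-microglobulin, the light chain that class I heavy chains need to reach the surface. It had 2632 reads (396 CPM) in WT and 2442 reads (395 CPM) in KO, and its log2 fold change of -0.00 had an interval from -0.08 to 0.08. Per *B2m* read there were 4.11 reads of the 3 heavy chain genes in WT and 5.90 in KO. This ratio, which needs no scaling to the library total, was 1.44-fold higher in KO (exact interval 1.35 to 1.53). Relative to *B2m*, *H2-K1*, *H2-D1* and *Tap2* were 1.46-fold, 1.46-fold and 1.43-fold higher, and *Nlrc5* and *Erap1* stood at 0.588 and 0.700 of their WT ratio.

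*Tap1* and *Tap2* encode the subunits of the peptide transporter. *Tap2*, on chromosome 17 from 34204479 to 34216321, had 1322 reads in WT (199 CPM) and 1756 in KO (284 CPM), or 0.51 on the log2 scale (interval 0.41 to 0.62). *Tap1*, from 34187556 to 34197225, had 142 reads in WT (21.4 CPM) and 134 in KO (21.7 CPM), or 0.02 (interval -0.33 to 0.37). The interval of *Tap1* does not reach the value of *Tap2*, and the ratio of *Tap2* to *Tap1* reads, 9.31 in WT and 13.1 in KO, was 1.41-fold higher in KO (exact interval 1.09 to 1.82). The subunits form a heterodimer. Per length *Tap1* was listed at 7.23 RPKM (CPM per 1000 bases of transcript) and *Tap2* at 57.8 RPKM in WT. RefSeq has 2 curated transcripts for *Tap1* and 1 for *Tap2*. Over all protein-coding genes tested, the median in WT was 13.9 RPKM for the 5649 genes with 1 curated transcript and 5.88 RPKM for the 4754 genes with more. How reads shared by several transcripts of a gene were counted is not stated, and its part in the low level of *Tap1* was not tested.

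*Tapbp* encodes tapasin, which holds empty heavy chains at the transporter. On chromosome 17 from 33919478 to 33929290, it also has 2 curated transcripts, and it had 127 reads (19.1 CPM) in WT and 160 reads (25.9 CPM) in KO. Its log2 fold change was 0.44, with an interval from 0.09 to 0.79 that is wide because of the few reads. *Calr*, on chromosome 8 from 84842088 to 84846931, encodes calreticulin, a lectin chaperone of the endoplasmic reticulum that serves many glycoproteins besides class I. It had the most reads of the 10 genes in WT, 5771 (868 CPM) and 5655 (914 CPM) in KO, and its log2 fold change was 0.08 (interval 0.02 to 0.13).

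*Erap1* and *Nlrc5* were the genes of the pathway that were lower in the KO library. *Erap1*, on chromosome 13 from 74639573 to 74693205, had 682 reads in WT (103 CPM) and 443 in KO (71.6 CPM), or -0.52 on the log2 scale (interval -0.69 to -0.34). It overlaps *Cast*, the calpastatin gene, in whose transcripts 13.3% of the 100-base windows of *Erap1* were also found. *Cast* itself had 1423 and 1073 reads (-0.30, interval -0.42 to -0.19). *Nlrc5*, on chromosome 8 from 94434335 to 94527272, had 497 reads in WT (74.7 CPM) and 271 in KO (43.8 CPM), which is 1.70-fold lower (log2 -0.77, interval -0.99 to -0.55). The known activator of class I genes and the heavy chain genes thus differed in opposite directions, and the ratio of *H2-K1* to *Nlrc5* reads was 2.48-fold higher in KO (exact interval 2.13 to 2.90). The gap was smaller after correction for transcript length, with *H2-K1* at 0.35 and *Nlrc5* at -0.36 on the log2 scale.

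**Figure D2:**
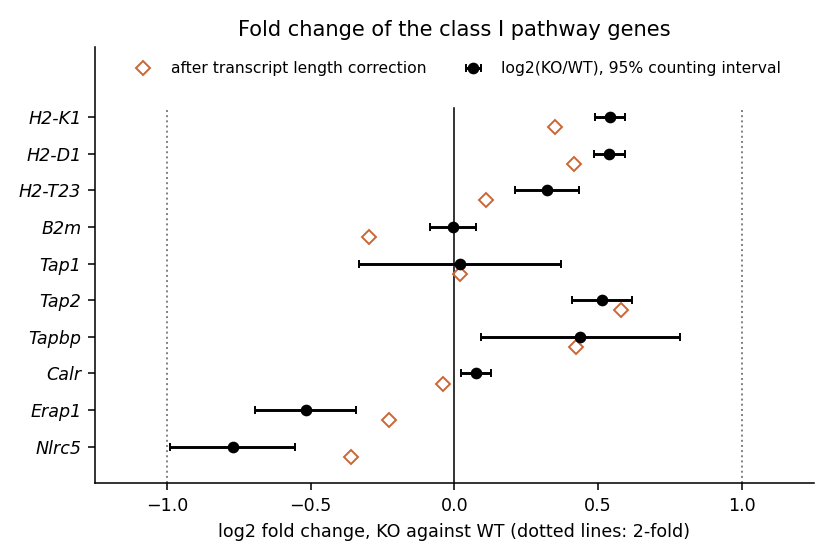
Log2 fold change of KO against WT for the 10 class I pathway genes (black points, bars are exact 95% intervals of counting error) and the same after correction for transcript length (open diamonds). All lie inside the dotted 2-fold lines, and the correction brings *Nlrc5* and *Erap1* closer to 0 and moves *B2m* below it.

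Fold changes between these libraries varied with transcript length over all genes. Across 10792 tested genes with a length, Spearman's rho between transcript length and log2 fold change was -0.39, a description over genes that share both libraries. When genes were split by length into 5 groups of like size, the group of the shortest transcripts, with *B2m*, *H2-K1* and *H2-T23*, had a median log2 fold change of 0.26. The group of the longest, with *Nlrc5* (7578 bases) and *Erap1* (5644 bases), had a median of -0.38. The middle group, with *Tap1*, *Tap2* and *Tapbp*, had a median of -0.02. After a loess curve against length was taken off, *Nlrc5* stood at -0.36 and *Erap1* at -0.23, both still below 0 and less far from it. *H2-K1*, *H2-D1*, *Tap2* and *Tapbp* stayed higher at 0.35, 0.41, 0.58 and 0.42, and *H2-T23* went to 0.11. *B2m*, with the shortest transcript of the 10 at 860 bases, went from -0.00 to -0.30, and *Calr* turned from 0.08 to -0.04. The heavy chain sum went to 0.35. With a correction for GC content in its place the sum stood at 0.44 and *B2m* at 0.16, a smaller gap than the 0.52 against -0.00 without correction. The part of the length trend in these differences was not tested further.

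**Figure D3:**
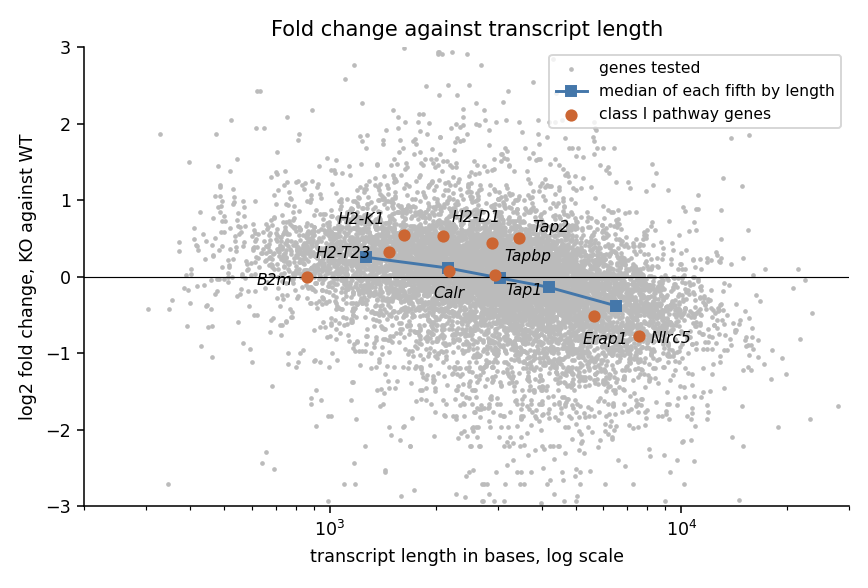
Log2 fold change of KO against WT against transcript length (log scale) for all tested genes with a length (grey), the medians of 5 length groups (blue squares) and the 10 class I pathway genes (orange); points beyond the axes are not drawn. The medians go from 0.26 for the shortest to -0.38 for the longest. *H2-K1*, *H2-D1*, *Tap2* and *Tapbp* lie above the medians of their length groups, while *B2m*, *Erap1* and *Nlrc5* lie below theirs.

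Levels per length ranged widely in both libraries. *H2-K1*, *Tap1* and *Tapbp* have 2 curated transcripts and the other 7 genes 1, and since the counting of reads shared by transcripts is not stated, their places in the order are uncertain. In WT the order was *H2-K1* (467 RPKM), *B2m* (460.2 RPKM), *Calr* (397 RPKM), *H2-D1* (328 RPKM), *H2-T23* (122 RPKM), *Tap2* (57.8 RPKM), *Erap1* (18.2 RPKM), *Nlrc5* (9.86 RPKM), *Tap1* (7.23 RPKM) and *Tapbp* (6.59 RPKM). Counting intervals overlapped between *H2-K1* and *B2m* and between *Tap1* and *Tapbp*, so these neighbours cannot be ordered. In KO, *H2-K1* led with 679 RPKM, followed by *H2-D1* (477 RPKM), *B2m* (459 RPKM), *Calr* (419 RPKM), *H2-T23* (153 RPKM), *Tap2* (82.5 RPKM) and *Erap1* (12.7 RPKM). *Tapbp* (8.93 RPKM), *Tap1* (7.34 RPKM) and *Nlrc5* (5.78 RPKM) came last there. *H2-D1* and *B2m*, *Tapbp* and *Tap1*, and *Tap1* and *Nlrc5* had overlapping intervals. *H2-D1* was thus below *B2m* and *Calr* in WT and not below them in KO. Summed over the 10 genes there were 21986 reads in WT and 25260 in KO (log2 fold change 0.30, interval 0.28 to 0.33).

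The other heavy chain genes did not share a direction. Of 22 in the list, 10 had enough reads to be tested, 7 had no read in either, and the other 5 had too few. Of the 10, 3 were at least 1.5-fold higher (10.8% over all genes tested) and 2 at least 1.5-fold lower (17.7%). Their median log2 fold change was 0.13. *H2-Q4*, with the most reads, had 725 and 784 reads (0.22, interval 0.07 to 0.37). *H2-M3*, whose product presents formylated peptides, had 95 and 137 reads (0.63, interval 0.24 to 1.03), and *H2-T10* 24 and 38 reads (0.76, interval -0.01 to 1.57). *H2-T24*, which lies next to *H2-T23*, had 69 and 28 reads and was lower in KO (-1.18, interval -1.89 to -0.54). *H2-Q10* had 16 and 4 reads (-1.77, interval -3.93 to -0.26) and *H2-Q7* 3 and 9 reads (1.55), whose interval includes 0. Of 7 class I-like genes, 3 were tested and none differed by 1.5-fold, among them *Mr1*, which presents vitamin metabolites, with 71 reads in each library, and *Procr*, the protein C receptor gene, with 106 and 79 reads.

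The immunoproteasome genes, whose products cut peptides suited to class I, had a median log2 fold change of 0.52. Of 5 intervals 4 lay above 0, as did 23.5% over all genes tested and 34.2% of genes with at least 276 reads. *Psmb8* had 1807 and 2648 reads (0.66, interval 0.57 to 0.74), *Psme1* 1629 and 1916 reads (0.34, interval 0.24 to 0.43) and *Psme2* 23 and 33 reads (0.62, interval -0.19 to 1.46). After length correction the median of the list was 0.28 and *Psme1* stood at 0.08.

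The 14 other loading and folding factors of the endoplasmic reticulum were all tested, and their median log2 fold change was 0.07. Of their intervals 7 lay above 0 and 4 below it. Over all genes tested these shares were 23.5% and 25.0%, and 34.2% and 30.4% among genes with at least 276 reads. *Pdia3* (ERp57), the thiol oxidoreductase of the loading complex, had 5042 and 5024 reads (0.10, interval 0.04 to 0.16), and *Sec61a1*, of the translocation channel, 2652 and 2547 reads (0.05, interval -0.03 to 0.13). *Canx*, the gene of calnexin, which holds newly made heavy chains, was lower with 95 and 56 reads (-0.65, interval -1.16 to -0.17). It has 3 curated transcripts, and the part of the counting of shared reads in its low level was not tested.

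Among 10 other peptidases of the route the median was -0.05. *Lnpep*, the gene of IRAP, which trims peptides in endosomes and is related to ERAP1, had 887 reads in WT and 294 in KO. It was 2.80-fold lower (log2 fold change -1.49, interval -1.68 to -1.30) and stood at -0.92 after length correction. *Lnpep* was the only gene of that list past 2-fold, and 7.94% of all genes tested were at least 2-fold lower. *Dpp8*, a cytosolic dipeptidyl peptidase gene, had 1310 and 783 reads (-0.64, interval -0.77 to -0.51). *Npepps* had 1793 and 1440 reads (-0.21) and *Nrdc* 1612 and 1549 reads (0.05).

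Of 17 genes for transcription of class I genes, 15 were tested, with a median of -0.44. It was -0.28 with 5 added to each count and -0.29 with at least 10 reads in each library. The list also holds genes of Polycomb repressors, so the median has no direction for class I transcription. There were 4 intervals above 0 and 5 below it, against 23.5% and 25.0% over all genes tested. Of the 15 genes, 2 were at least 2-fold lower (7.94% over all genes tested). Among them was *Irf1*, an interferon regulatory factor gene, with 8 and 2 reads (-1.66) and an interval that includes 0. *Rfx5*, a subunit of the factor that binds class I and class II promoters, had 645 and 384 reads (-0.64, interval -0.83 to -0.46). *Nfya*, a subunit of NF-Y, had 23 and 14 reads (-0.59, interval -1.68 to 0.41). The NF-κB genes *Nfkb1* and *Rela* had 4066 and 3968 reads (0.07, interval 0.01 to 0.13) and 2519 and 2517 reads (0.10, interval 0.02 to 0.18). After length correction *Rfx5* stood at -0.47.

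**Figure D4:**
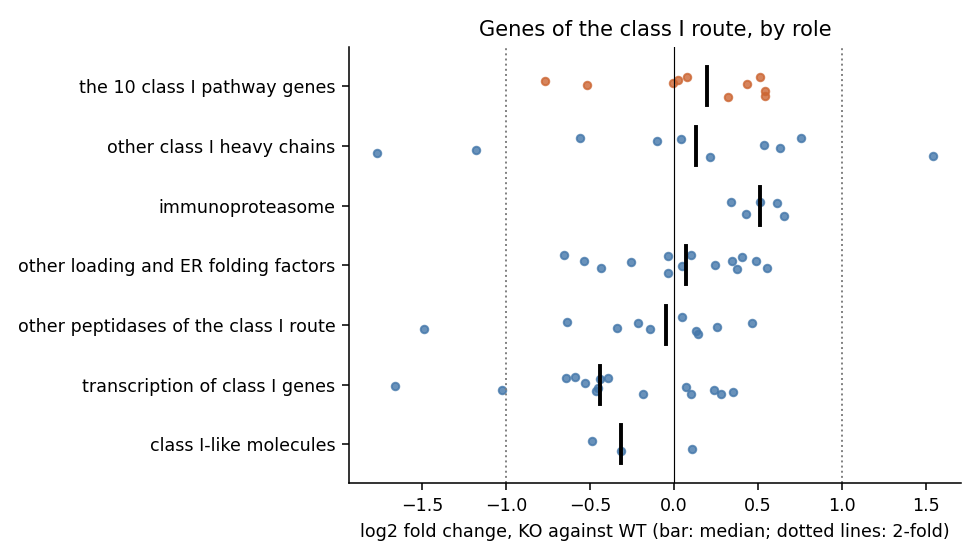
Log2 fold change of KO against WT for tested genes, in the 10 class I pathway genes (orange) and the lists of other genes of the route (blue); each point is a gene, bars are medians and dotted lines mark 2-fold. The medians run from 0.52 for the immunoproteasome to -0.44 for the transcription genes. With at least 10 reads in each library the median of the transcription genes was -0.29.

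On chromosome 17, 6 of the 10 genes lie between 33919478 and 36032701, a stretch of 2113 kb that holds 88 tested genes. The other 82 genes there had 21 intervals above 0 and 10 below it, against 23.5% and 25.0% over all genes tested. Their median log2 fold change was 0.12, and the median of the 6 was 0.48. After length correction these medians were -0.02 and 0.38. *Psmb9*, *Tap1*, *Psmb8* and *Tap2* follow each other there, with log2 fold changes of 0.43, 0.02, 0.66 and 0.51. The interval of *Tap1* overlaps that of *Psmb9* (0.20 to 0.67) and lies below those of *Psmb8* and *Tap2*. *Tap1* and *Psmb9* start head to head, and 4.0% of the 100-base windows of the *Tap1* transcript are also in a *Psmb9* transcript. The nearest genes with reads on either side of *H2-K1* were *AA388235* (48 and 63 reads, 0.49, interval -0.07 to 1.07) and *Ring1*, a Polycomb gene (303 and 382 reads, 0.44, interval 0.22 to 0.66). Those of *H2-D1* were *Ddx39b* (135 and 137 reads, 0.13, interval -0.23 to 0.48) and *H2-Q4*. Of genes in this stretch with at least 50 reads in the higher library, *1110038B12Rik* (103 and 44 reads, -1.11) and *H2-T24* were past 2-fold, both lower.

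The list of 10 class II genes, markers of antigen-presenting cells, had 111 CPM in all in WT and 115 CPM in KO. Not all of them lie in this stretch, and *Cd74* is outside it. Of the 10, 8 were tested, with a median log2 fold change of -0.25, and -0.49 after length correction. Of their intervals 1 lay above 0 (23.5% over all genes tested) and 7 included 0. The interval above 0 was that of *H2-DMa*, with 217 and 304 reads (0.59, interval 0.33 to 0.85). *H2-Ab1* had 275 and 222 reads (-0.20, interval -0.47 to 0.06).

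**Figure D5:**
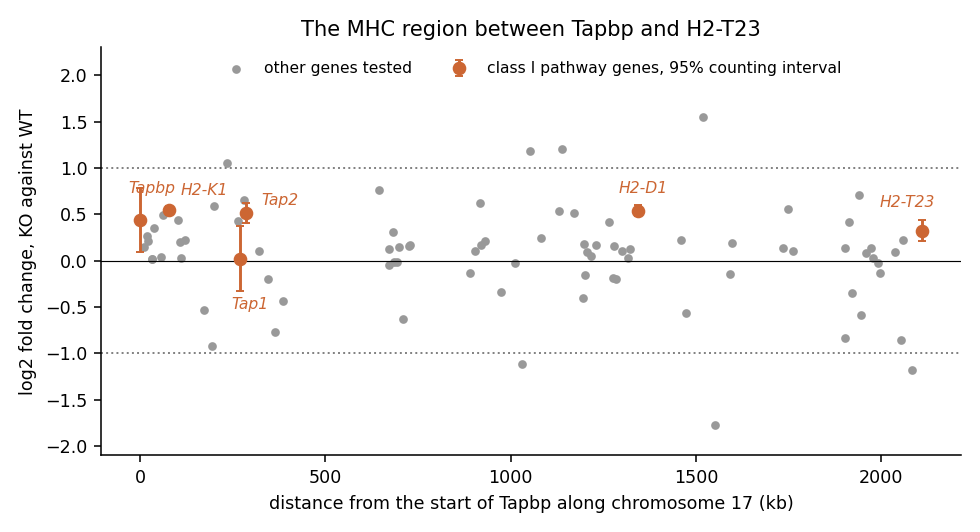
Log2 fold change of KO against WT for the 88 tested genes between *Tapbp* and *H2-T23* on chromosome 17, by distance from the start of *Tapbp* in kb; orange points are the 6 class I pathway genes with exact 95% intervals of counting error, grey points the other 82 genes, dotted lines 2-fold. *Tapbp*, *H2-K1*, *Tap2*, *H2-D1* and *H2-T23* lie above 0 with their intervals, and *Tap1* lies at 0.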

How the data were processed

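The authors mapped reads to mm10 with SOAP2, per the paper's methods, and the submitters' processing notes also name bcl2fastq, HTSeq and Bowtie. The deposited values, 1 table per library, are raw read counts for each gene that the headers call unique, not normalized. Annotation, strand and the treatment of shared reads are not given in the sources used here. The ChIP-seq samples were not analysed here.

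Genes without reads are not listed and were given 0. Of 13704 symbols, 12841 matched a RefSeq symbol of GRCm38.p6, 804 a unique older symbol and 59 none. Length and GC content are those of the longest protein-coding transcript in GENCODE M21, and 99.2% of tested genes had a length. Counts were scaled to library totals. edgeR's quasi-likelihood fit leaves no residual degrees of freedom with 1 library per genotype, so a gene was called past 2-fold at 10 or more reads over both libraries, with no test. At this depth 3 reads are 0.451 CPM in WT and 0.485 CPM in KO. Ratios are conditional odds ratios (SciPy 1.17.1). Loess curves had a span of 0.3 (statsmodels 0.14.6). Shared sequence was sought on both strands of all GENCODE transcripts. Alternatives used edgeR 4.0.16 and DESeq2 1.42.0 in R 4.3.3. The motifs were chosen after the windows had been seen. Calculations were tested on simulated data.

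The members and lists were chosen with earlier results of these data known. Besides the 10 genes, *Trim28* and neighbouring or overlapping genes, the text names from each list the 2 genes with the most reads (markers, 1) and every gene past 1.5-fold (markers and the chromosome 17 stretch, past 2-fold with at least 50 reads). *H2-Ab1*, *Cd8b1*, *Cd8a*, *Il2ra*, *Akr1a1* and marker genes at 0 were named after their values were seen. Genes of 2 lists that this rule would name are not reported here.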

Additional observations from a re-analysis of the deposited data

How the results depend on the processing

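No paired analysis was possible because there was 1 library per genotype. None of the 10 genes passed 2-fold in either direction under another scaling or pseudocount, or with the length or GC correction. The read filters left the values of the 10 genes as they were, and the call rules with a test only drop genes past 2-fold. Neither could change this result. At 1.5-fold 1 was lower, *Nlrc5*, which was not past 1.5-fold with the length correction (-0.36). Over all genes, 864 lower and 408 higher became 551 and 262 with 5 added to each count, 2012 and 1152 with at least 1 read, 406 and 195 with at least 10 reads in each library, 131 and 65 under edgeR's exact test with a biological variation of 0.2 assumed, 9 and 7 with 0.4, and 1927 and 1170 at 1.5-fold. The median of the 10 genes went from 0.20 to 0.021 without *H2-K1*, *H2-D1* and *H2-T23*. The heavy chain sum (0.52) went to 0.35 with the length correction and 0.44 with the GC correction. *Calr* reversed with the length correction, at -0.040. The causes were not tested. The length correction moved *B2m*, *H2-K1*, *H2-D1*, *H2-T23*, *Nlrc5*, *Erap1* and *Calr* beyond their counting intervals, and the GC correction *B2m* (to 0.16), *H2-K1* (0.46) and *H2-D1* (0.46). Other scalings shifted the median log2 fold change over all genes tested by 0.0194 (TMM), 0.0188 (DESeq2) and 0.0087 (upper quartile). Read filters and the pseudocount change the values of the 10 genes little by construction. The median over the members with 1 curated transcript, chosen after seeing the data, was 0.075. Counting limits *Tap1* and *Tapbp* most.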
